A study of Mus musculus with 6 samples.

Results

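The 49 genes described here encode proteins of the cytosolic ribosome, and they were measured in early thymic progenitors of mice with and without Tcf1, a DNA-binding factor of early T-cell development. They were chosen by symbol from 18193 genes. A gene was taken if its single annotated symbol begins with Rpl or Rps and goes on with the number of a ribosomal protein, or is Rplp0, Rplp2 or Rpsa. Kinases of the Rps6k family and pseudogenes were left out. Where a gene had several probe sets, the brightest over all 6 arrays stood for it, so genotype played no part in the choice. A probe set is the group of short probes on the array that reads one transcript.

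The cells were thymocytes of the DN1 stage, sorted as Lin-, CD44+, CD25- and kit+, from C57Bl/6 mice at 10 weeks of age. There were 3 arrays of Tcf1-/- mice and 3 of Tcf1-/+ mice, which the titles name as biological replicates. A second label of the Tcf1-/+ arrays reads wild type, and the name in the titles is used here without the conflict being resolved. The number of animals behind an array is not stated, so the p-values measure the spread between these arrays. About 1000 cells yielded 3 ng of RNA on average, which was amplified before hybridization. The labels name no Cre or cell type that limits the deletion, and Tcf7, which encodes Tcf1, was not analysed here.

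The cytosolic ribosome is built from ribosomal RNAs and a large set of proteins, nearly all made from single active genes that are expressed together and in matched amounts. Their messages are among the most abundant of a growing cell. Many begin with a stretch of pyrimidines at the first base, the terminal oligopyrimidine tract, through which mTOR signalling controls their translation. Several members have further roles that bear on blood and T cells. Loss of Rpl22 blocks the development of alpha-beta T cells, Rpl11 carries a stress signal to p53 through Mdm2, and mutations in RPS19 and RPS26 cause the red cell disorder Diamond-Blackfan anaemia.

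Annotated starts are shown for members that the results turn on, to show where pyrimidine runs lie at the start of these genes. The sequences are from RefSeq on the mouse assembly GRCm38.p6. Each runs 5′ to 3′ along the gene's strand over 45 bases, 30 before the annotated first base and 15 from it on. Capitals mark an unbroken run of at least 6 bases that are all C or T and that lies within 5 bases of the annotated start. In Rps26 and Rpl22l1 the marked run begins after the annotated first base, which is not a pyrimidine.
Rps6, chr4:86857353-86857397, minus strand: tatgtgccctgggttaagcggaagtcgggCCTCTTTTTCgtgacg
Rps26, chr10:128626492-128626536, minus strand: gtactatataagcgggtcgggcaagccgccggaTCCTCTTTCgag
Rps18, chr17:33955651-33955695, minus strand: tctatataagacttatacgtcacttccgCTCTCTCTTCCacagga
Rplp2, chr7:141447621-141447665, plus strand: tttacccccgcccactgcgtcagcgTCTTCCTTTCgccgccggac
Rpl22l1, chr3:28805478-28805522, plus strand: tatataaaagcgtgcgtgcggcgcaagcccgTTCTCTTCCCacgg
Rpl7l1, chr17:46782642-46782686, minus strand: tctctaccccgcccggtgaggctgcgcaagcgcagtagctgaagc
Rplp0, chr5:115559437-115559481, plus strand: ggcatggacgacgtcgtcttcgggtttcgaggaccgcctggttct

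A start was listed for 43 of the 49 members, in 51 windows of 300 bases, and for 27025 genes in all, in 32851 windows. Such a run of at least 6 bases lay at 45.1% of the member windows and at 21.0% of all windows. Runs of at least 8 bases lay at 35.3% and 9.72%. The starts of Rpl7l1 and Rplp0 as annotated carried none. In the same windows, searched on both strands, the ETS motif CGGAAGT was found in 25.5% of member windows and 6.42% of all, and the YY1 motif AAGATGG in 15.7% and 6.34%. The TCF/LEF motif CTTTGAT was found in 0 of the 51 member windows and in 3.73% of all windows. In member windows, matches of different motifs overlapped in 0 windows, and a match overlapped the pyrimidine run in 0. These are matches of letters near annotated starts, and binding was not measured.

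Most members lay slightly lower in Tcf1-/- progenitors, and none passed the test. The Tcf1-/- mean was below the Tcf1-/+ mean for 40 of 49 members and above it for 9, where 45.7% of all genes had a lower mean. The median difference, Tcf1-/- minus Tcf1-/+ on the log2 scale as all differences here, was -0.16 over the members and 0.036 over all genes. On the linear scale a difference of this size corresponds to a ratio of 0.894. In a bulk sample of sorted cells, fewer cells of a type and less RNA per cell cannot be told apart.

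Genotypes were compared with limma, with Benjamini-Hochberg adjustment over all 45037 probe sets tested. At an adjusted threshold of 0.05, limma called 0 of the 49 members, and it called 0 probe sets in all (0%). Among members the smallest adjusted p from limma was 0.597. At an unadjusted p under 0.05 there was 1 member, which was lower in Tcf1-/-. At that threshold 3.4% of all genes were lower and 6.78% differed in either direction, as did 6.48% of probe sets. Of the 874 other genes in the top 5% by level, 2.97% were lower at that threshold, and of the 148 in the top 1%, 0% were. All 3 Tcf1-/- arrays lay below all 3 Tcf1-/+ arrays for 9 members, or 18.4%, where 4.94% of all genes did so, and 0 members lay the other way, where 7.22% of all genes did. The lower pattern was seen in 7.21% of the other genes in the top 5% by level and 6.08% of those in the top 1%. The 9 were Rpl7l1, Rps26, Rpl8, Rps18, Rpl10a, Rplp2, Rps15, Rpl41 and Rpl7, of which Rps18, Rpl10a, Rps15 and Rpl41 were picked out after their values were seen. The 95% confidence interval of the difference lay within 1 log2 unit of 0 on both sides for 36 members, or 73.5%, against 43.7% of all genes. It did so for 515 of the 874 other genes in the top 5% and 130 of the 148 in the top 1%. The members were read on shared arrays, so their counts are not counts of independent measurements.

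**Figure D1:**
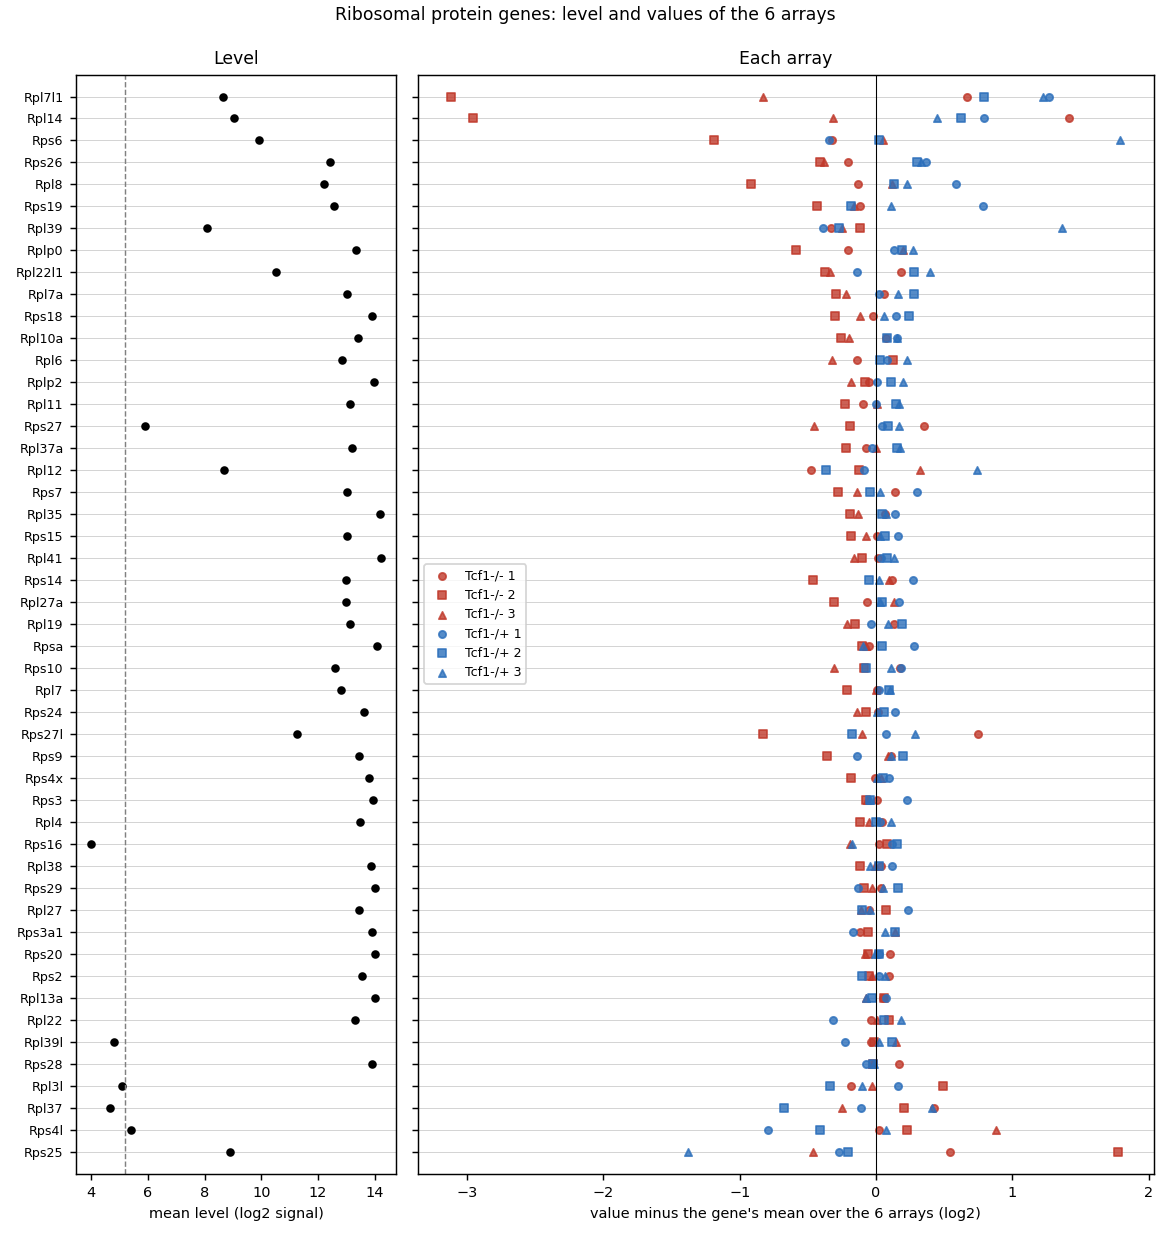
Level and array values of the 49 members. The left panel gives each member's mean over the 6 arrays in log2 signal, with a dashed line at the background level of 5.21, and the right panel gives each array's value minus that mean, with Tcf1-/- in red and Tcf1-/+ in blue and the replicate number by the shape of the point. Members are ordered by difference, from Rpl7l1 at -2.19 to Rps25 at 1.24, and most rows between them are narrow.

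The shift was spread over both subunits. Of the 26 members of the large subunit, 21 had a lower mean, with a median difference of -0.18. Of the 23 members of the small subunit, 19 had a lower mean, with a median of -0.12. Of the 23 genes with a pyrimidine run of at least 6 bases at a listed start, the median was -0.17, and of the 20 with a listed start and no such run it was -0.13.

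The shift was not even over the arrays of a genotype. The median deviation of the members from their own mean over the 6 arrays was 0.016, -0.13 and -0.076 on Tcf1-/- replicates 1, 2 and 3. On the Tcf1-/+ replicates it was 0.073, 0.052 and 0.10. The genotypes therefore did not overlap on this median, though Tcf1-/- replicate 1 lay close to the Tcf1-/+ arrays and replicate 2 lay farthest from them. Replicate 2 was the lowest of the 6 arrays for 26 members, or 53.1%, and it was the lowest for 19.3% of all genes and 33.1% of the other genes in the top 1% by level. Without it the median difference was -0.11, with a lower mean for 37 members.

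Tcf1-/- replicate 2 also stood apart over the whole array. It correlated with the other 5 arrays between 0.870 and 0.893 over all probe sets, where those 5 reached between 0.928 and 0.933 with their closest array. Other bright genes also shifted on single arrays. The 874 other genes in the top 5% by level had a median deviation of -0.13 on Tcf1-/- replicate 2 and 0.075 on replicate 3, and a median difference of -0.06, with a lower mean for 59.5%. In the top 1%, the 148 other genes had a median difference of -0.0037, with a lower mean for 52%. Against these bright genes the members differed on Tcf1-/- replicate 3, where the members lay at -0.076 and the 148 genes at 0.067, and on Tcf1-/+ replicate 1, where they lay at 0.073 and -0.075. The part of array-wide shifts in the members' difference was not tested beyond the rescalings that follow. With quantile normalization the members' median was -0.10 and 36 had a lower mean, while the median of the 148 other genes in the top 1% moved to 0.052. With cyclic loess the members' median was -0.098 and 38 had a lower mean, with the 148 genes at 0.065. Centring the arrays on the 874 bright genes moves all genes alike, and it gave -0.077 and 34 for the members, 0.081 for the 148 genes and 0.12 for all genes. The members' median minus that of all genes was -0.20 as deposited, -0.14 with quantile normalization and -0.12 with cyclic loess. Centring leaves it at -0.20 by construction.

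**Figure D2:**
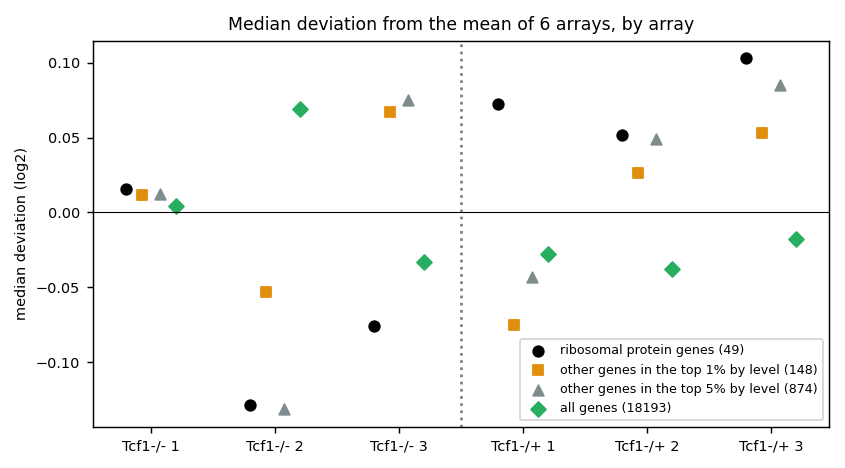
Median deviation by array, in log2 units, from each gene's mean over the 6 arrays. The members (black circles) lie between -0.13 and 0.016 on the Tcf1-/- arrays and between 0.052 and 0.10 on the Tcf1-/+ arrays, while the other bright genes (squares and triangles) are low on Tcf1-/- replicate 2 and on Tcf1-/+ replicate 1.

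The members were among the brightest probe sets of the array. Of the 49, 34 lay in the top 1% of genes by mean level, above 12.38 on the log2 scale, and the median member lay at 13.03. The brightest member value on any array was 14.4, and the brightest value in the table was 14.81. The range over the 6 arrays narrowed towards this end. It had a median of 1.45 for the 12 members with a mean under 10, 0.549 for the 7 between 12 and 13, and 0.289 for the 15 brightest, with means from 13.56 to 14.23.

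Control transcripts added to every sample gave a measure of this narrowing. The 18 spiked control probe sets were all lowest on Tcf1-/+ replicate 1. Those with a mean under 12 spanned 0.738 to 0.988 log2 units over the 6 arrays. The 7 with a mean of 14 or more spanned only 0.053 to 0.538, and the brightest, with a mean of 14.77, spanned 0.053. Their median difference was 0.31 for those under 12 and 0.10 for those of 14 or more, higher in Tcf1-/-, unlike that of the members. The median difference of members was -0.12 for the 12 with a mean under 10, -0.24 for the 2 between 10 and 12, -0.22 for the 7 between 12 and 13, -0.17 for the next 13 and -0.09 for the 15 brightest. It was thus not ordered by level throughout. Whether the members' differences were flattened near the top of the scale was not tested.

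**Figure D3:**
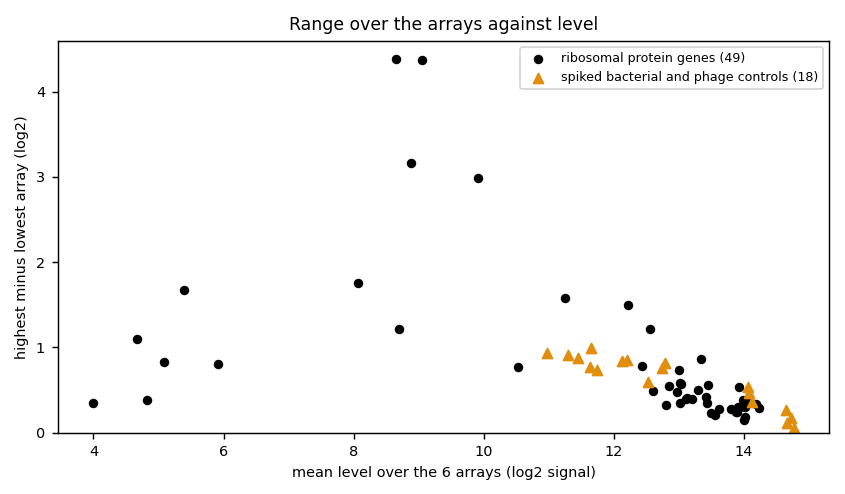
Highest minus lowest of the 6 arrays, in log2 units, against mean level for the 49 members (black) and the 18 spiked controls (orange triangles). The 15 brightest members span 0.151 to 0.538, and the spiked controls fall from near 0.9 at a level of 11 to 0.053 at the top.

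Rps26, a small-subunit protein that contacts messenger RNA at the exit channel, had the smallest unadjusted p of the members. In Tcf1-/- it was at 12.22, 12.01 and 12.05, and in Tcf1-/+ at 12.80, 12.73 and 12.76. The genotypes did not overlap, and the arrays of each lay close together. The difference was -0.67 (SE 0.18), with a 95% interval of -1.10 to -0.23, which is a ratio of 0.63. It did not pass limma's adjusted threshold (adjusted p = 0.597, lower in 3 of 3 Tcf1-/- arrays), and it ranked at 342 among all genes by unadjusted p. Over all alternatives its difference lay between -0.73 and -0.53 and its adjusted p between 0.408 and 0.845.

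Rps19, the small-subunit protein most often mutated in Diamond-Blackfan anaemia, was at 12.43, 12.13 and 12.40 in Tcf1-/- and at 13.34, 12.37 and 12.67 in Tcf1-/+. A single Tcf1-/+ array was high and the genotypes overlapped, with a difference of -0.47 (SE 0.30). Without Tcf1-/+ replicate 1 it was -0.20. Of the 13 listed genes tied to that disorder, 8 were measured, of which 7 had lower means, with a median of -0.17. Rpl11, which with the 5S ribosomal RNA inhibits Mdm2, was at 13.02, 12.88 and 13.12 against 13.11, 13.26 and 13.28, a difference of -0.21 (SE 0.18), with overlap.

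Among the other proteins of the large subunit, Rpl8, which lies at the peptidyl transferase centre, was at 12.07, 11.29 and 12.32 in Tcf1-/- and at 12.79, 12.34 and 12.43 in Tcf1-/+. The genotypes nearly met but did not overlap, and Tcf1-/- replicate 2 was the low array. The difference was -0.62 (SE 0.32), and it was -0.32 without that array. Rplp0, the base of the stalk that recruits elongation factors, was at 13.14, 12.75 and 13.54 against 13.47, 13.53 and 13.61. It differed by -0.40 (SE 0.25), or -0.20 without Tcf1-/- replicate 2. Rplp2, a further stalk protein, was at 13.92, 13.90 and 13.80 against 13.99, 14.09 and 14.18, without overlap, a difference of -0.21 (SE 0.18).

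Further members of large-subunit and small-subunit roles lay closer to 0 than the members' median of -0.16, some of them only just. Rpl38, known for its part in translating Hox messages, differed by -0.06 (SE 0.18). Rps4x, which is X-linked, differed by -0.10 (SE 0.18) and Rpsa, also known as the laminin receptor, by -0.15 (SE 0.19). Rpl7 differed by -0.14 (SE 0.18) and Rpl13a, which is released from the ribosome in interferon responses, by 0.024 (SE 0.18). For each of these 5 genes the 95% interval lay between -0.62 and 0.46. The dimmer probe sets of Rpl13a differed by -0.35, -0.30 and -0.36, the last without overlap. Rps28 was at 14.06, 13.86 and 13.86 in Tcf1-/- against 13.81, 13.87 and 13.87 in Tcf1-/+, a difference of 0.075 (SE 0.18) with overlap.

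Rpl22 and its paralogue Rpl22l1, which can take its place in the ribosome, were both measured. Rpl22 was at 13.26, 13.39 and 13.30 in Tcf1-/- and at 12.98, 13.36 and 13.48 in Tcf1-/+. Its difference was 0.045 (SE 0.21), with an interval of -0.47 to 0.56 and overlap. Rpl22l1 was at 10.71, 10.15 and 10.19 against 10.39, 10.80 and 10.92. Its difference was -0.35 (SE 0.26), with an interval of -0.99 to 0.28, and the genotypes overlapped. The sign of Rpl22 turned to -0.10 without Tcf1-/+ replicate 1, and to -0.18 on its brightest probe set with a plain ID ending.

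Rpl7l1, a paralogue of Rpl7, had the largest difference of the members. Its values were 9.32, 5.54 and 7.82 in Tcf1-/- and 9.92, 9.45 and 9.88 in Tcf1-/+. The Tcf1-/- arrays were far apart, and replicate 1 lay just under the lowest Tcf1-/+ array. The difference was -2.19 (SE 0.92), with a limma adjusted p of 0.784, and the unadjusted p was 0.0546. Without Tcf1-/- replicate 2 it was -1.18, and without Tcf1-/- replicate 1 it was -3.07. Both further probe sets of Rpl7l1 had lower Tcf1-/- means too, with differences of -0.77 and -1.02, but the genotypes overlapped on both. Tcf1-/- replicate 2 was the lowest array on each, at 4.37 and 5.66. On the probe set at -0.77, that value lay under the background level. Tcf1-/- replicates 1 and 3 were there at 6.91 and 7.31, within the Tcf1-/+ range of 6.49 to 7.41. That probe set therefore adds little to the difference of the brightest. On the probe set at -1.02, Tcf1-/- replicates 1 and 3 were at 6.18 and 7.54, and the Tcf1-/+ arrays at 8.17, 5.93 and 8.34.

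In several dimmer members a single array lay far from the rest. Rpl14 was at 10.46, 6.09 and 8.73 in Tcf1-/- and at 9.84, 9.67 and 9.49 in Tcf1-/+. Its difference of -1.24 (SE 1.05) became -0.07 without Tcf1-/- replicate 2. Rps6, whose protein is phosphorylated by the S6 kinases, was at 9.58, 8.72 and 9.96 against 9.56, 9.93 and 11.70, a difference of -0.98 (SE 0.64). Here a single Tcf1-/+ array was high, and without that replicate 3 the difference was -0.32. Rpl39, a small protein of the exit tunnel, was at 7.74, 7.95 and 7.82 against 7.68, 7.80 and 9.43. The same Tcf1-/+ array was high, and without it the difference of -0.47 (SE 0.49) turned to 0.099.

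Higher Tcf1-/- means were few. Rps25, a small-subunit protein needed for initiation at some internal entry sites, had the largest, at 9.43, 10.66 and 8.42 against 8.61, 8.68 and 7.50. The difference was 1.24 (SE 0.64), with overlap, and 0.66 without Tcf1-/- replicate 2. Rps4l, a paralogue of Rps4x, was at 5.42, 5.62 and 6.27 against 4.60, 4.98 and 5.47, a difference of 0.75 (SE 0.34) with overlap. The background level was taken from control probe sets for bacterial transcripts that were not added, and the Tcf1-/+ mean of Rps4l lay under it. Both means of Rps16, Rpl37, Rpl39l and Rpl3l also lay under it, so their differences of -0.061, 0.25, 0.062 and 0.19 are not well measured.

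Of these, Rpl39l is known as a testis paralogue and Rpl3l as a striated muscle paralogue. Rps16 and Rpl37 are core proteins of the ribosome, and for both the array has other probe sets that the annotation gives to several genes. Such probe sets named 15 of the 49 members besides their own. Of the 13 members below the top 5% by level, 8 were among those 15, which include Rpl14, Rps6, Rpl39, Rps25 and Rps27. A further 28 ribosomal protein symbols appeared on probe sets of several symbols alone, among them Rpl3, Rpl5, Rpl10 and Rplp1, and were not analysed here. Without the 15, the median of the 34 other members was -0.14, and 29 had a lower mean. Rps27 on its 1 named probe set was at 6.26, 5.72 and 5.46 against 5.95, 6.00 and 6.08, a difference of -0.20 (SE 0.26). Its paralogue Rps27l, a target of p53, was at 12.003, 10.42 and 11.15 against 11.32, 11.08 and 11.54, a difference of -0.12 (SE 0.42) that was 0.26 without Tcf1-/- replicate 2. Differences of genes with near-identical copies remain uncertain, since probes can bind their products too.

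Differences were also read on all probe sets of the members. Of the 105, 85 had a lower Tcf1-/- mean and 20 a higher one, with a median of -0.17. Of the 24 members with more than 1 probe set, all probe sets had lower means for 11, and the signs were mixed for 13. Rps18, for example, had 6 probe sets, all with lower means, between -1.08 and -0.08, and its brightest was at 13.89, 13.62 and 13.79 against 14.06, 14.16 and 13.97. For Rps9, which was chosen after its values were seen, the 3 probe sets ran from -0.18 to 1.30. ID endings other than a plain _at mark probe sets that may bind several transcripts, whether of 1 gene or of several. Of the 49 members, 34 were represented by such a probe set, 20 ending in _a_at, 13 in _x_at and 1 in _s_at.

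**Figure D4:**
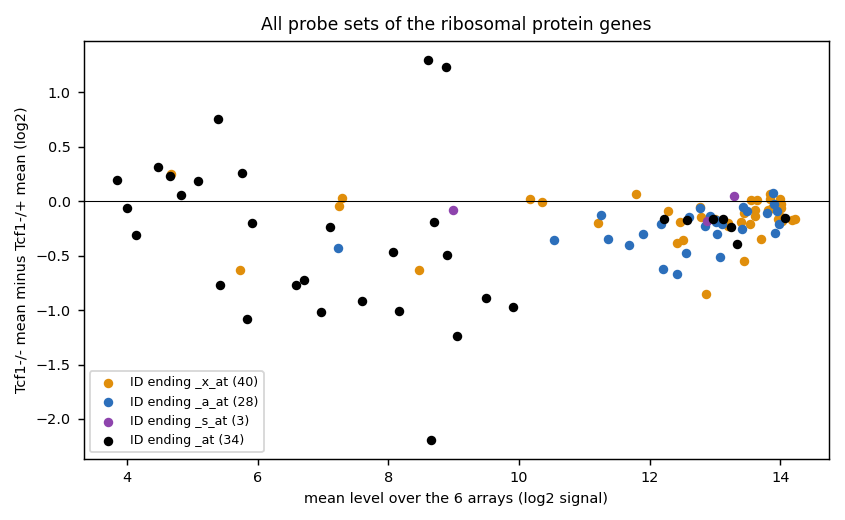
Difference between genotypes in log2 units against mean level for all 105 probe sets of the 49 members, coloured by the ending of the probe set ID. Above a level of 12 most lie a little under 0, within a range of -0.85 to 0.075, and below 10 they spread from -2.19 to 1.30.

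Other genes of the translation apparatus were read from the same fit, and 0 in any list were called. Of 69 measured genes of ribosome biogenesis, 44 had lower means, with a median of -0.09. At an unadjusted p under 0.05 there were 1 lower and 3 higher, where 3.4% of all genes were lower and 3.38% higher. Wdr36, of the small-subunit processome, differed by 1.12 (SE 0.38) and Ddx56, a nucleolar helicase, by -0.61 (SE 0.21). Of 32 initiation factor genes, 20 had lower means, with a median of -0.086. Eif1b differed by -0.74 (SE 0.25), and Eif4ebp1, the mTOR-controlled inhibitor of Eif4e, by 0.96 (SE 0.46).

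Of 9 elongation and termination genes, 7 had lower means, with a median of -0.10, and Eef1e1 and Abce1 differed by -0.91 (SE 0.61) and -0.31 (SE 0.21). Of 20 other genes whose messages carry an oligopyrimidine tract, a list that shares genes with the others, 15 had lower means, also with a median of -0.10. Pabpc1, the poly(A)-binding protein, was at 12.45, 12.18 and 12.41 against 12.69, 12.73 and 12.89, a difference of -0.43 (SE 0.19) without overlap. Nap1l1 differed by -0.50 (SE 0.39). Of 18 genes of mTOR, S6 kinase, Myc and Mdm2 signalling, 9 had lower and 9 higher means. Tsc1, a brake on mTOR, differed by -0.83 (SE 0.21) without overlap. Myc, which drives transcription of ribosomal protein genes, differed by -0.88 (SE 0.41), with overlap. The part of Myc in the members' difference was not tested.

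The 76 genes of mitochondrial ribosomal proteins, which belong to a separate ribosome, had lower means for 51, with a median of -0.24. Their median level was 8.77, well below that of the cytosolic members. At an unadjusted p under 0.05, 5 were lower and 1 higher, where 3.4% of all genes were lower and 3.38% higher. Their median deviation was -0.47 on Tcf1-/- replicate 2 and 0.22 and 0.022 on replicates 1 and 3, against 0.19, -0.0079 and 0.26 on the Tcf1-/+ arrays. Here the genotypes overlapped, and Tcf1-/- replicate 2 was the low array. Mrps18a was at 8.02, 7.45 and 7.51 against 9.19, 8.65 and 9.35, a difference of -1.40 (SE 0.28), and Mrpl46 differed by 0.73 (SE 0.18), both without overlap and with limma adjusted p of 0.464 and 0.542.

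Marker genes of the sort gate and of other cell types were read from the same fit, and 0 were called. Of the 7 gate and progenitor genes, 5 had lower and 2 higher means, with differences from -1.53 to 0.69. The list includes Il2ra, which the sort selected against. The summed linear signal of all 7 was 6449 to 7743 in Tcf1-/- and 9402 to 10188 in Tcf1-/+. Of 9 NK and innate lymphoid genes, 5 had higher and 4 lower means, from -1.49 to 4.50, with a median difference of 0.071. At an unadjusted limma p under 0.05, 4 were higher and 1 lower, where 3.38% of all genes were higher and 3.4% lower. Their summed signals, in which the brightest genes weigh most, were 6964 to 11869 in Tcf1-/- and 1874 to 3223 in Tcf1-/+. Both means of Ncr1, the Tcf1-/- mean of Eomes and the Tcf1-/+ mean of Cxcr6 lay under background. The summed signals of the erythroid, myeloid, B-lineage, dendritic, mature T-cell and stromal lists overlapped between genotypes. Lower means were seen in 3 of 8 erythroid, 2 of 10 myeloid and 1 of 7 B-lineage genes. They were seen in 5 of 7 dendritic, 2 of 6 mature T-cell and 0 of 7 stromal genes, and the rest of each list had higher means. The 2 genes of smallest p were Flt3 (-1.53) and Cd34 (-1.24) for the gate, Id2 (3.19) and Gzmb (4.06) for NK and innate lymphoid, Car1 (3.41) and Epor (1.16) for erythroid, and Ngp (1.95) and S100a8 (2.64) for myeloid genes. They were Ms4a1 (0.31) and Pax5 (0.52) for B-lineage, Flt3 and Cd74 (-1.61) for dendritic, Cd4 (2.93) and Cd3e (-1.66) for mature T-cell, and Pdgfra (0.37) and Krt5 (1.10) for stromal genes. Both means of Ms4a1 and Pdgfra and the Tcf1-/+ means of Pax5, Epor and Ngp lay under background, so the sizes of these differences are not well measured. At an unadjusted limma p under 0.05 there were 0 erythroid, 0 B-lineage and 0 stromal genes, where 6.78% of all genes differed. Car1 thus did not reach that threshold, and of the myeloid genes 1 did. The part of cell composition in the ribosomal differences was not tested.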

How the data were processed

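The deposited values are log2 signals per probe set from Affymetrix mouse genome arrays, 1 column for each of the 6 arrays. Per the labels' protocols, RNA was amplified with a whole-transcriptome kit and labelled with biotin. How the authors summarized and normalized the log2 values is unknown here, and no further normalization was applied. The scale was read from the values, which lay between 2.15 and 14.81. Array medians lay between 5.80 and 5.87. Arrays have no read depth, and their number limits the precision.

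Of 45101 probe sets, 64 controls were left out and 45037 tested. Of these, 34945 had 1 symbol in the platform annotation, 932 had several and 9160 had none. The RefSeq table held the identifiers of 34741, and 0 symbols changed. Background was the 95th percentile, 5.21, of 27 bacterial control probe sets. limma 3.58.1 in R 4.3.3 was run with default settings and no covariates, two-sided, and was tested on simulated data. Exact permutation of 3 against 3 cannot go below 0.1 and was not used. Unused value columns numbered 0.

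The members, gene lists and alternatives were chosen with earlier results of these data known. Named members were the 8 of highest and 8 of lowest difference, members of fixed roles, the 5 of smallest p and those under background, and from each list the 2 genes of smallest p. Alternatives were the replicate block, quantile and loess normalization, centring on bright genes, a filter on level, trended and robust variances, array weights, leaving out each array, other probe set choices, and leaving out the brightest members.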

Additional observations from a re-analysis of the deposited data

How the results depend on the processing

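The count of called members was 0 under every alternative run, and the count of called probe sets was 0 wherever it was recomputed. The members' median difference of -0.16 became -0.10 with quantile normalization, -0.098 with cyclic loess and -0.077 when centred on bright genes, where the SD of the members' array medians within a genotype was 0.055. The median of all genes, 0.036 as deposited, was 0.036, 0.025 and 0.12 under these, and the last setting moves all genes alike by construction. Leaving out single arrays gave -0.21 to -0.11, with 37 to 41 members lower. Members with a lower mean numbered 21 of 26 on the brightest probe set with a plain ending and 10 of 15 without members in the top 1% of probe sets, where fewer members were counted. Members at an unadjusted p under 0.05, 1 in the fit as reported, numbered 3 when centred on bright genes, 2 with the filter on level, 3 with trended and robust variances, 0 without the top 1% and 1 to 3 without single arrays. With the replicate number as a block there were 4. In the fit as reported, 6.78% of all genes differed at that threshold. The share of all genes under each alternative is not given here, so these counts cannot be set against it. Same-numbered arrays of the 2 genotypes deviated with correlations of 0.029, 0.063 and 0.035, and differently numbered ones with correlations from -0.10 to 0.078. Such correlations cannot tell whether same-numbered samples share more than a number. The block changed no call.

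Signs of some named members turned under some settings. Rps27l was 0.042 with array weights and 0.017 with the members' median subtracted, an alternative chosen after seeing the data. Subtracting that median moves all members alike, as does centring on bright genes, so members close to 0 turn by construction. It also gave 0.079 for Rpl38, 0.035 for Rps4x and 0.078 for Rps16. Rpl38 was 0.024 and Rps16 0.023 when centred on bright genes, and Rpl38 was 0.0042 with quantile normalization. Rpl39l was -0.0044 with cyclic loess. The mean of all probe sets gave -0.25 for Rpl13a and -0.070 for Rpl22, and the plain probe set -0.18 for Rpl22. Leaving out single arrays gave -0.53 to 0.26 for Rps27l, -0.10 to 0.15 for Rpl22, -0.036 to 0.13 for Rpl39l, -0.026 to 0.52 for Rpl37, -0.16 to 0.020 for Rps16, -0.78 to 0.099 for Rpl39, -0.0090 to 0.066 for Rpl13a and -0.013 to 0.32 for Rpl3l. The causes were not tested.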
